A study of Mus musculus with 12 samples.

Results

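*Ighj3* is one of the joining segments of the immunoglobulin heavy chain locus, and its rearrangements in the splenic B cells of *MRL-lpr* mice are described here. A rearrangement was counted as *Ighj3* when a translated sequence without a stop codon held a pair of Tyr or Phe residues followed by Cys, with that Cys at residue 16 to 30, and after it the residues WGQGTLV, which open framework 4 of this segment. The CDR3 is the stretch between that Cys and the Trp of the motif. In all, 156569 of 605266 unique translations met the rule, and 543334 held the motif of 1 of the 4 J segments. A further 2493 translations with the motif were set aside because they held a stop codon, and 1737 because no such Cys lay in the window.

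All mice were female, 14 weeks old and of the SLE-prone *MRL-lpr* strain, which is homozygous for the lpr mutation of *Fas*. One group of 6 received a control splice-modulating oligomer (control SMO), and the other group of 6 received an SMO against the long form of the prolactin receptor (LFPRLR SMO). RNA of B cells isolated from the spleen was amplified from the J558 family of VH genes to Cμ, so other V families and switched isotypes were outside the assay. The comparison asks whether the rearrangements differed between mice in which the receptor isoform was targeted and mice in which it was not.

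In a heavy chain rearrangement a D segment is joined to a J segment and a V segment to that DJ product. Exonucleases trim the ends and terminal transferase adds bases before ligation, so the CDR3 holds the V end, the D segment, added bases and whatever the trimming left of the J segment. In the mouse, *Ighj3* lies between *Ighj2* and *Ighj4* (order from the RefSeq annotation of GRCm38.p6, since no build is named for the tables). Untrimmed, it contributes Trp, Phe, Ala and Tyr (WFAY) to the end of the CDR3 ahead of the conserved Trp. Arginine, and positive charge in general, in the heavy chain CDR3 is known from antibodies against DNA in lupus-prone mice.

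The sequences below show the trimming and the CDR3s on which the read counts turn. The first is the commonest base at each position of the *Ighj3* end, with the 14 bases that lie ahead of the Trp codon in capitals and framework 4 in lower case. The others run from the first codon of the CDR3 to the Trp codon, with the bases that match the *Ighj3* end without a break, and the Trp codon, in capitals. Of these, 1 stands for each number of residues kept, being the most-read CDR3 of its class that occurred in both groups. The 14-residue and 17-residue CDR3s were each the commonest of a library with at least 5% of its *Ighj3* reads, and the 7-residue CDR3 with 3 kept had the most nucleotide versions.
Ighj3 end and framework 4: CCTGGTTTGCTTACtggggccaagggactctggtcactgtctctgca
11 residues, 4 kept: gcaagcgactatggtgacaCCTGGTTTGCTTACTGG
12 residues, 3 kept: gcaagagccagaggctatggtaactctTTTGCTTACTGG
9 residues, 2 kept: aagaattataggtacgacgTTGCTTACTGG
5 residues, 1 kept: gctagatcttCTTACTGG
7 residues, 0 kept: gctagatcagggaactgggACTGG
14 residues, 2 kept: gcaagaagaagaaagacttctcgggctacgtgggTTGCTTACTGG
17 residues, 3 kept: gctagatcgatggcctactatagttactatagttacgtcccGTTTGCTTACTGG
7 residues, 3 kept: gcaagaggggGGTTTGCTTACTGG

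The libraries were not alike, and these facts bear on every comparison. Each control SMO library held 7488 to 19865 *Ighj3* translations, and 5 of the LFPRLR SMO libraries held 9003 to 17242, but LFPRLR SMO 6 held 127, from 155 reads. In LFPRLR SMO 6, 84.2% of the 114 *Ighj3* CDR3s occurred in another library, against 14.6% to 44.1% of those in the others (pairs named next taken as 1 library). By reads the share was 87.7%, against 26.7% to 86.2% in the others. Of its CDR3s, 62.3% occurred in a control SMO library and 67.5% in another LFPRLR SMO library. A few pairs of libraries shared abundant sequences. Of the 50 commonest *Ighj3* CDR3s, control SMO 5 and 7 shared 36, control SMO 4 and 8 shared 35 and LFPRLR SMO 4 and 5 shared 31, while no other pair of 1 group shared more than 15. The libraries also fell into sets by the Cμ end: a variant base was carried by 33.2% to 40.1% of sequences in control SMO 4, 7 and 9 and LFPRLR SMO 3, 4 and 7 (the high-variant set), and by at most 2.25% in control SMO 3, 5 and 8 and LFPRLR SMO 5, 6 and 8 (the low-variant set). The part that shared sequences and library set had in any difference below was not tested beyond the values given beside it. No molecular identifiers were described, so intervals on shares cover counting error alone. Values are given by translations, where each unique translation counts once, and by reads, where it counts by its abundance. Different translations can hold the same CDR3, so 1 CDR3 can count several times by translations. Control SMO 5, for example, held 7488 *Ighj3* translations with 3856 different CDR3s. The exact Mann–Whitney *U* test, two-sided, compared the groups, and its smallest p with 6 against 6 mice is 0.00216. It takes the 12 libraries as independent, which the 3 pairs with shared sequences may not be. With each pair averaged, 4 against 5 units remain and the smallest p of the test is 0.0159.

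*Ighj3* carried between 24.8% and 33.6% of the rearrangements in every library, counted either way. By translations its share was 28.0%, 29.2%, 26.0%, 27.4%, 29.0% and 29.5% in control SMO 3, 4, 5, 7, 8 and 9. In LFPRLR SMO 3, 4, 5, 6, 7 and 8 it was 29.9%, 29.7%, 27.1%, 25.8%, 29.5% and 29.8%, the value of 25.8% having a Wilson interval of 22.1% to 29.8%. The groups overlapped, and the median of 28.5% in control SMO mice and 29.6% in LFPRLR SMO mice did not differ by the test (exact p = 0.310, adjusted p over 4 J segments = 0.932, shift +0.578 percentage points with a 95.9% interval from -2.10 to 2.45). By reads the share was 24.8% to 31.7% with a median of 27.3% in control SMO mice, and 27.3% to 33.6% with a median of 30.1% in LFPRLR SMO mice (exact p = 0.240, adjusted p = 0.413, shift +2.45 percentage points, interval -1.36 to 5.54). Among translations with at least 2 reads, the difference in the translation share was 1.86 percentage points (exact p = 0.0152, unadjusted). Within the low-variant set the difference between medians was -0.991 percentage points, against the direction of the pooled value.

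In the order of use, *Ighj2* held a median of 32.7% of translations, *Ighj3* 29.1%, *Ighj4* 28.9% and *Ighj1* 9.25% over the 12 libraries. *Ighj2* was above *Ighj3* in 12 of 12 libraries. *Ighj3* and *Ighj4* could not be ordered, since *Ighj3* was the higher in 5 libraries and the lower in 7.

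**Figure D1:**
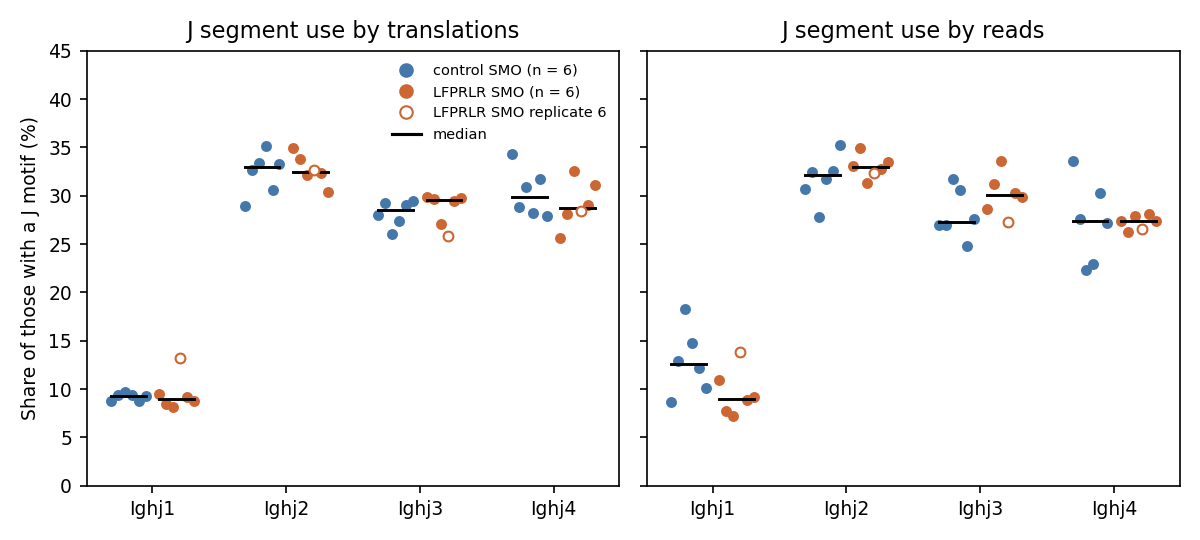
Share of translations (left) and of reads (right) with each J motif, in percent, 1 point per library (n = 6 per group), with the median as a bar. The *Ighj3* points of the groups overlap in both panels, between 25.8% and 29.9% of translations and between 24.8% and 33.6% of reads.

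The *Ighj3* CDR3s peaked at 11 or 12 residues in every library when counted by translations. The mean length was 10.4 to 11.1 residues (median 10.7) in control SMO mice and 10.4 to 11.2 residues (median 10.6) in LFPRLR SMO mice, and the groups did not differ by the test (exact p = 0.485, adjusted p over 4 J segments = 0.932, shift -0.132 residues, interval -0.401 to 0.355). By reads the mean was 10.1 to 10.9 (median 10.4) and 10.3 to 11.4 residues (median 10.8; exact p = 0.132, adjusted p = 0.264, shift +0.353, interval -0.0920 to 0.890). By reads the peak moved from 11 to 9 residues, with 28.2% of reads, in control SMO 7 and from 12 to 14 residues, with 30%, in LFPRLR SMO 5, the length of an abundant CDR3 in each. The peak also moved from 11 to 12 residues in control SMO 8 and from 12 to 13 in LFPRLR SMO 3. In LFPRLR SMO 6 it moved from 12 to 11. In control SMO 5 it stayed at 11 residues, with 19.6% of translations and 33.2% of reads. The share of reads on CDR3s of 13 to 15 residues was 7.31% to 22.5% in control SMO mice and 19.5% to 36.7% in LFPRLR SMO mice (exact p = 0.0411, adjusted p over 54 further *Ighj3* measures = 0.123), which did not pass after adjustment. Lengths of 20 residues or more were rare, with 49 translations and 64 reads from control SMO mice and 82 translations and 353 reads from LFPRLR SMO mice. Of the latter, LFPRLR SMO 4 and 5 held 30 translations each, of which 22 and 28 were of 21 residues. Without LFPRLR SMO 5 the count was 52 translations and 169 reads, and without both 22 and 31.

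**Figure D2:**
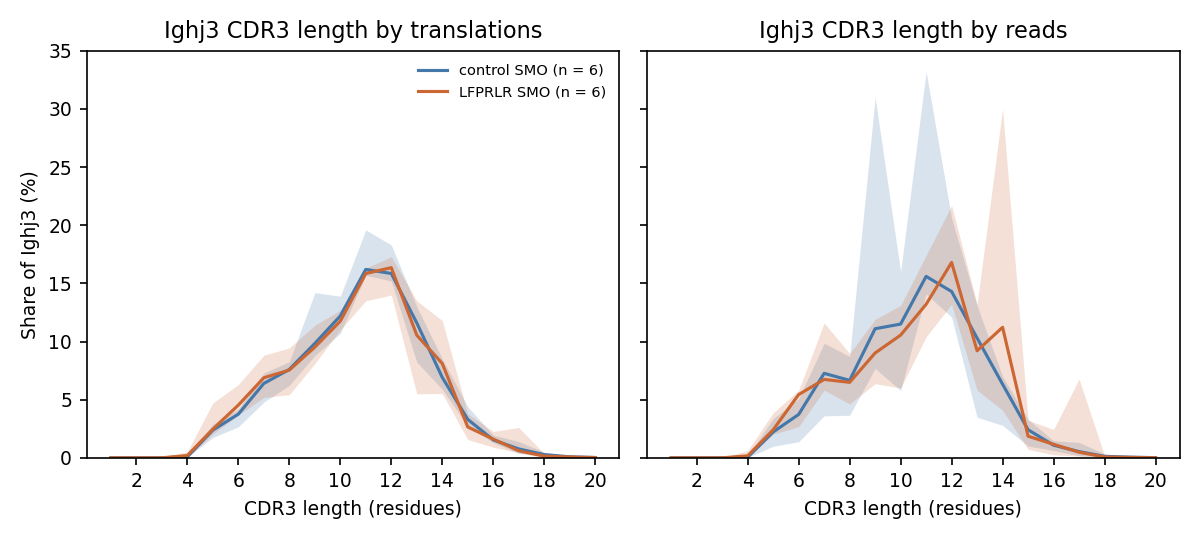
Share of *Ighj3* translations (left) and reads (right), in percent, at each CDR3 length in residues. Lines are the medians of 6 libraries per group and bands run from the lowest to the highest library. The lines lie together by translations, and the bands by reads widen at 9, 11 and 14 residues, the lengths of abundant CDR3s.

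Trimming left 3 or 4 residues of WFAY in most *Ighj3* rearrangements. The residues kept are those that match the end of WFAY without a break, whether encoded by the segment, by the end of another J segment or, by coincidence, by added bases. By translations, over the 12 libraries, 4 residues were kept in a median of 32.6%, 3 (FAY) in 38.9%, 2 (AY) in 14.4%, 1 (Y) in 11% and 0 in 3.48%. The mean was 2.80 to 2.96 residues in control SMO mice and 2.77 to 2.98 in LFPRLR SMO mice (exact p = 0.310, adjusted p over 4 J segments = 0.589). By reads it was 2.87 to 3.02 and 2.62 to 2.96 (exact p = 0.0931, adjusted p = 0.186). The complete end was kept by more translations than that of *Ighj4* (median 22.1%) in 12 of 12 libraries, than that of *Ighj2* (30.1%) in 11 and than that of *Ighj1* (28.4%) in 9. The ends differ in length and these shares were not tested within libraries.

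The rearrangements with no residue of WFAY left were the class that differed between the groups by translations. Their share was 2.82%, 3.51%, 2.88%, 3.16%, 3.0% and 3.45% in control SMO 3, 4, 5, 7, 8 and 9, and 3.79%, 4.0%, 3.92%, 4.72%, 3.53% and 3.40% in LFPRLR SMO 3, 4, 5, 6, 7 and 8. The medians were 3.08% and 3.86%, and 1 LFPRLR SMO library lay inside the control range (exact p = 0.00866, adjusted p over 5 classes = 0.0433, shift +0.675 percentage points, interval 0.286 to 1.22). Between medians the difference was 0.781 percentage points, and 0.717 without LFPRLR SMO 6 (exact p = 0.0173, adjusted p = 0.0866). The adjusted call was lost on leaving out 9 of the 12 libraries in turn and kept without control SMO 4 or 9 or LFPRLR SMO 8. It was 1.04 within the low-variant set and 0.345 within the high-variant set, where 3 against 3 libraries cannot give a p under 0.100. It did not pass when each unique CDR3 was counted once (0.703 percentage points, exact p = 0.0649) or among translations with at least 2 reads (0.524, exact p = 0.394), and it was 0.366 (exact p = 0.0260) when every library was drawn down to the size of LFPRLR SMO 6. By reads this share did not differ by the test (1.21% to 4.69% and 3.25% to 3.87%, exact p = 0.485, adjusted p = 0.736).

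By reads, all 4 residues were kept in 33.5% to 42.2% in control SMO mice (median 34.8%) and in 17.4% to 35.5% in LFPRLR SMO mice (median 31.5%; exact p = 0.0260, adjusted p over 5 classes = 0.13), which did not pass after adjustment. The lowest values were those of LFPRLR SMO 5, 17.4%, and LFPRLR SMO 4, 23.2%, which shared abundant sequences. The 2-residue class held 32.1% and 30.9% of reads in control SMO 5 and 7 and 35.5% in LFPRLR SMO 5, against 12.2% to 24.7% elsewhere.

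**Figure D3:**
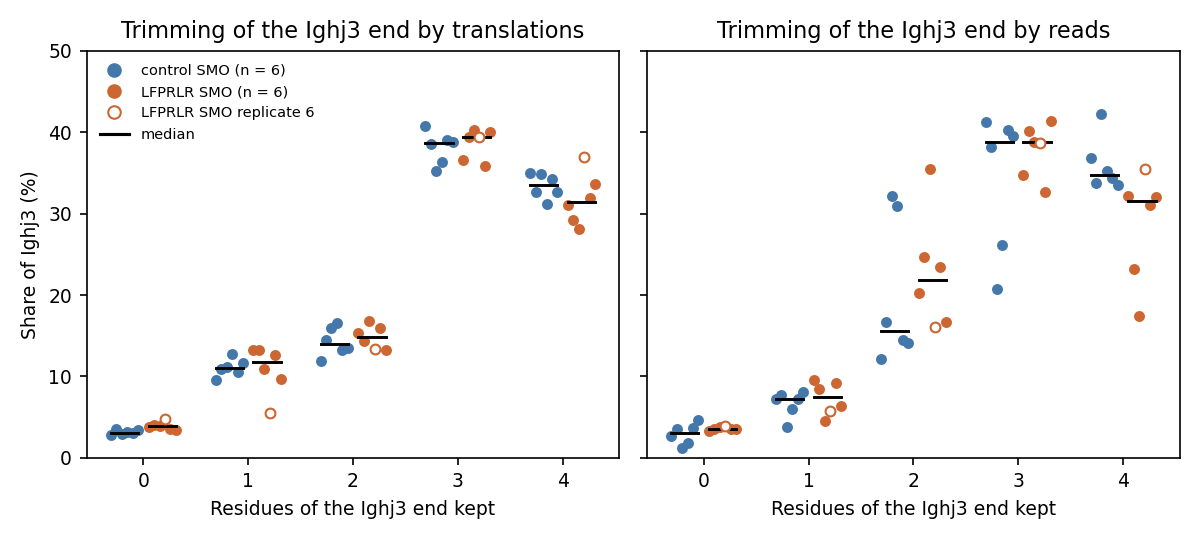
Share of *Ighj3* translations (left) and reads (right), in percent, that kept 0 to 4 residues of the end of the segment, 1 point per library (n = 6 per group), with the median as a bar. By translations the class with 0 kept is higher in LFPRLR SMO mice, with medians of 3.08% and 3.86%. By reads LFPRLR SMO 4 and 5 are lowest at 4 kept (23.2% and 17.4%), and control SMO 5 and 7 are lowest at 3 kept (20.7% and 26.1%).

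The nucleotide tables resolved the trimming to single bases. Among sequences that kept all 4 residues, each of the 12 bases ahead of the Trp codon was the same in at least 99.8%, the base before them in 93.8% and the next in 75.8%, and the end was read as 14 bases. Over the libraries a median of 24.4% of unique *Ighj3* nucleotide sequences kept all 14 bases. Other common end points were 11 bases (14.8%), 9 bases (12.6%), 10 bases (10.7%), 6 bases (8.01%) and 3 bases (7.17%). The 3-base point need not be trimming of *Ighj3* alone. Ends of *Ighj2* (FDY) and *Ighj4* (MDY) stood ahead of the motif in medians of 2.91% and 2.27% of *Ighj3* translations. Both close with Tyr, whose codon can match these bases, and their part in the 3-base share was not tested. End points of 0, 1, 2, 4, 5, 7 and 12 bases were rare, at 0.724% to 2.00% each. The ends printed above show this range, from 14 bases in the 11-residue CDR3 to 2 in the CDR3 with none of the residues left. The mean number of bases kept was 9.61 to 10 in control SMO mice and 9.39 to 10.2 in LFPRLR SMO mice (exact p = 0.18, adjusted p over 54 measures = 0.359), and the shift was within the spread between mice. Without LFPRLR SMO 6 the difference between medians was -0.419 bases (exact p = 0.0303, unadjusted).

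The share of reads with the complete 14-base end was lower in LFPRLR SMO mice. It was 29.4%, 26.2%, 36.9%, 29.5%, 26.5% and 25.9% in control SMO 3, 4, 5, 7, 8 and 9, and 19.9%, 16.7%, 13.4%, 23.9%, 20.2% and 25.4% in LFPRLR SMO 3, 4, 5, 6, 7 and 8. The groups did not overlap, though the gap between LFPRLR SMO 8 and control SMO 9 was small (exact p = 0.00216, adjusted p over 54 measures = 0.0390, shift -9.28 percentage points, interval -16.1 to -2.60). This adjusted p depends on the rest of the family, where the other measures that passed were overlapping measures of arginine and charge. Without the 10 commonest CDR3s of each library the difference between medians was -2.08 percentage points (exact p = 0.00216, unadjusted), in place of -7.91. Within the low-variant and high-variant sets it was -5.57 and -6.34 percentage points. Adjusted again over the 54 measures, the call was lost on leaving out 8 of the 12 libraries in turn (adjusted p up to 0.0779, exact test). The 11-residue CDR3 printed above, with all 14 bases, held 25% and 15% of reads in control SMO 5 and 7. By unique sequences the shares were 24.0% to 27.2% and 20% to 25.2%, which did not pass after adjustment (exact p = 0.0260, adjusted p = 0.108). Counted by residues, the share with the complete end was also lower in LFPRLR SMO mice on *Ighj4*, at medians of 24.3% and 18.8% of reads (exact p = 0.00866, unadjusted) and 23.0% and 20.6% of translations (exact p = 0.0260, unadjusted). The group difference in the share that kept all residues of the end was not shown to differ between *Ighj3* and any other segment (adjusted p over 3 segments 0.539 to 0.937 by reads, exact test).

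A small part of the translations carried the *Ighj3* motif behind the end of another J segment. Endings of *Ighj2* (FDY), *Ighj4* (MDY) or *Ighj1* (FDV) stood ahead of WGQGTLV in 4.19% to 6.70% of *Ighj3* translations in the 11 larger libraries and in 0.787%, 1 translation, of LFPRLR SMO 6. By reads the median was 2.36%. The converse, FAY ahead of the motif of another segment, made up a median of 4.0% of *Ighj2*, 0.891% of *Ighj1* and 0.725% of *Ighj4* translations. Behind the motif, TVSS, the end of the other segments, took the place of TVSA in a median of 3.07% of *Ighj3* translations. Neither the share of other ends nor that of TVSS differed between the groups by the test (exact p = 0.818 for each). Since FDY and MDY also close with Tyr, such translations were counted with at least 1 residue kept. Without other J ends the 0-residue difference was 0.831 percentage points and did not pass after adjustment (exact p = 0.00866, adjusted p over 54 measures = 0.0519).

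Arginine was the amino acid of the *Ighj3* CDR3s that differed between the groups after adjustment, and it was higher in LFPRLR SMO mice. By translations it made up 9.43%, 9.42%, 8.94%, 9.48%, 9.30% and 9.42% of residues in control SMO 3, 4, 5, 7, 8 and 9, and 10.4%, 10.6%, 10.9%, 10.6%, 10% and 9.52% in LFPRLR SMO 3, 4, 5, 6, 7 and 8. The groups did not overlap (exact p = 0.00216, adjusted p over 80 tests = 0.0433, shift +1.13 percentage points, interval 0.520 to 1.49). The 80 tests cover 20 amino acids on 4 J segments, of which 5% were called, so 1 of 20 called on *Ighj3* is a share equal to that background. A higher arginine share over all J segments together was known from an earlier look at these libraries, and the *Ighj3* value is not independent of it. The call over 80 tests was lost on leaving out any 1 library, since the smallest p with 5 against 6 is 0.00433, and the difference itself was then 1.02 to 1.15 percentage points. Without the 10 commonest CDR3s of each library it was 0.599 percentage points (exact p = 0.00866, unadjusted), and with each unique CDR3 counted once 0.402 (exact p = 0.0649, unadjusted).

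By reads the arginine share was 9.53%, 9.24%, 7.08%, 8.29%, 9.44% and 9.33% in control SMO 3, 4, 5, 7, 8 and 9, and 11.4%, 14.2%, 17.1%, 11%, 10.3% and 9.84% in LFPRLR SMO 3, 4, 5, 6, 7 and 8. The groups again did not overlap, but no amino acid of any J segment passed after adjustment by reads (0% of 80 called; arginine exact p = 0.00216, adjusted p = 0.0866; 12 of the 80 had an unadjusted p under 0.05). The highest values were in LFPRLR SMO 5 and 4, where the 14-residue CDR3 printed above, with 4 arginines, held 27.2% and 14.2% of *Ighj3* reads. Without the 10 commonest CDR3s of each library the difference between medians was 0.824 percentage points (exact p = 0.00866, unadjusted) in place of 1.90, while the difference in means over all reads was 3.50. Within the low-variant and the high-variant set the differences were 1.58 and 2.12 percentage points by reads and 1.27 and 1.02 by translations.

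The arginines were split by their place in the loop. Residue 2 of the CDR3, usually encoded by the end of the J558 gene, was arginine in 65.3% to 74.4% of translations in control SMO mice and 71.7% to 76.0% in LFPRLR SMO mice (exact p = 0.240, adjusted p over 54 measures = 0.432). By reads it was arginine in 33.3% and 44.6% in control SMO 5 and 7, whose abundant CDR3s lack it there, and in 66.3% to 79.7% elsewhere (exact p = 0.00866, adjusted p = 0.0519). After residue 2 there were 0.272 to 0.307 arginines per translation in control SMO mice and 0.305 to 0.438 in LFPRLR SMO mice (exact p = 0.00433, adjusted p over 54 measures = 0.0390). *Ighj3* CDR3s with 3 or more arginines made up 2.55%, 2.47%, 2.90%, 2.47%, 2.90% and 2.49% of translations in control SMO 3, 4, 5, 7, 8 and 9, and 5.21%, 5.06%, 7.50%, 7.09%, 3.16% and 3.05% in LFPRLR SMO 3, 4, 5, 6, 7 and 8. These groups did not overlap (exact p = 0.00216, adjusted p = 0.0390, shift +2.58 percentage points, interval 0.564 to 4.61). With each unique CDR3 counted once the difference was 0.591 percentage points (exact p = 0.0411, unadjusted), and without the 10 commonest CDR3s it was 1.13 (exact p = 0.0260, unadjusted). Within the low-variant and high-variant sets it was 4.19 and 2.58. On leaving out each library in turn, the adjusted call on 3 or more arginines was lost for 8 of 12 and that on arginines after residue 2 for 11 of 12. These measures were chosen after the arginine share had been seen.

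The mean net charge of the *Ighj3* CDR3, counting arginine and lysine as positive and aspartate and glutamate as negative, was above 0 in all 12 libraries by translations. It was 0.150 to 0.261 (median 0.220) in control SMO mice and 0.261 to 0.585 (median 0.389) in LFPRLR SMO mice (exact p = 0.00433, adjusted p over 54 measures = 0.0390, shift +0.183, interval 0.0564 to 0.369). The difference between medians was 0.169, and it was 0.0977 on leaving out LFPRLR SMO 4, 5 or 6 (exact p = 0.00866 each). Within the low-variant and high-variant sets it was 0.357 and 0.103, and with each unique CDR3 counted once 0.0496 (exact p = 0.0411, unadjusted). By reads the values were -0.126 to 0.357 and 0.336 to 1.94 (exact p = 0.00433, adjusted p = 0.0390). Both adjusted calls were lost on leaving out 10 of the 12 libraries in turn (adjusted p up to 0.0779, exact test). The highest charges by reads were in LFPRLR SMO 5 and 4 (1.94 and 1.21). There the 14-residue CDR3, of net charge 5, held 27.2% and 14.2% of *Ighj3* reads. The lowest were in control SMO 5 and 7 (-0.126 and 0.107). In these the 11-residue CDR3, of charge -2, held 25% and 15%, and the 9-residue CDR3, of charge 1, 25.3% and 20.6%. Elsewhere control SMO mice had 0.172 to 0.357 and LFPRLR SMO mice 0.336 to 0.703. Charge by reads without these CDR3s was not tested.

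The net charge was higher in LFPRLR SMO mice on the other segments too. By translations the medians were -0.390 and -0.305 on *Ighj2*, where the groups did not overlap (exact p = 0.00216), -0.530 and -0.422 on *Ighj4* (exact p = 0.0260) and -0.571 and -0.441 on *Ighj1* (exact p = 0.0260), all unadjusted. By reads the groups did not overlap on *Ighj4* (-0.501 and -0.260, exact p = 0.00216, unadjusted). The group difference on *Ighj3* was not shown to differ from that on any other segment (adjusted p over 3 segments = 0.240 for each by translations and 0.140 to 0.240 by reads, exact test).

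Other amino acids of the *Ighj3* CDR3 moved less. Glycine was 10.3% to 10.8% of residues in control SMO mice and 9.46% to 10.5% in LFPRLR SMO mice (exact p = 0.0152, adjusted p over 80 tests = 0.173). Aspartate was 5.81% to 6.84% and 5.06% to 6.36% (exact p = 0.0411, adjusted p = 0.299). Of the residues that the segment itself supplies, Trp was 4.09% to 4.37% and 3.92% to 4.19% (exact p = 0.0260, adjusted p = 0.208), Phe 7.50% to 7.81% and 7.20% to 8.64% (exact p = 0.485), Ala 19.0% to 19.4% and 19.1% to 20.4% (exact p = 0.0649) and Tyr 19.0% to 19.9% and 18.2% to 19.5% (exact p = 0.240). None of these passed after adjustment. With the kept residues of the segment removed, arginine was 12.2% to 12.9% and 12.9% to 14.8% (exact p = 0.00866, adjusted p over 80 tests = 0.115).

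**Figure D4:**
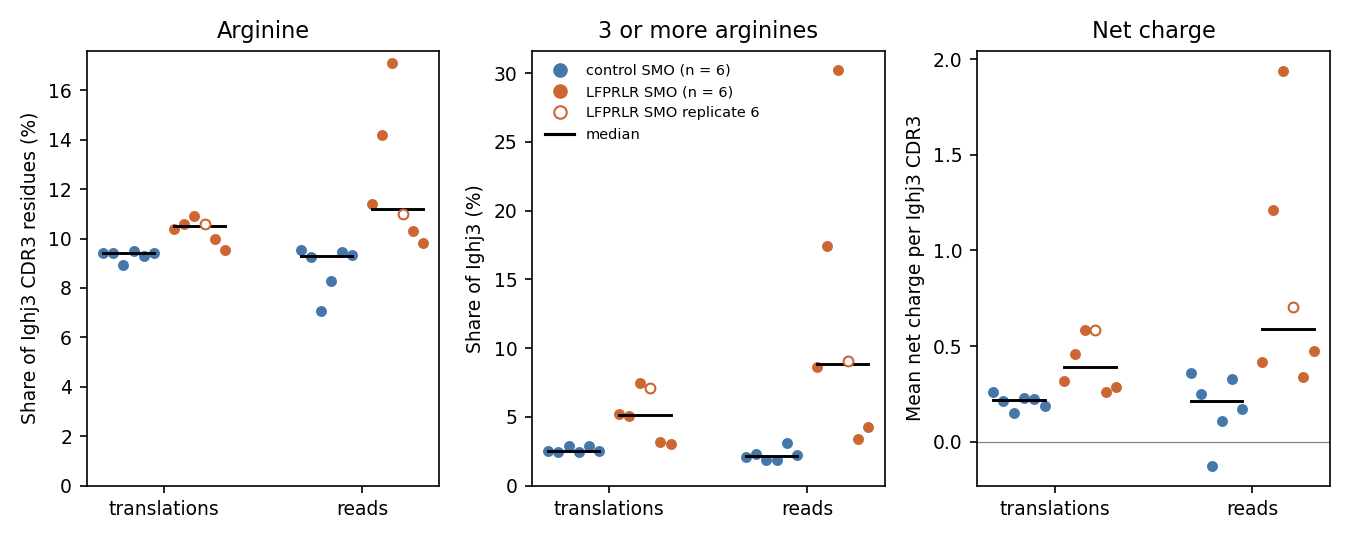
Arginine as a percentage of *Ighj3* CDR3 residues (left), percentage with 3 or more arginines (middle) and mean net charge (right), by translations and by reads, 1 point per library (n = 6 per group), with the median as a bar. By translations the LFPRLR SMO libraries lie at 9.52% to 10.9% arginine, above the control SMO libraries at 8.94% to 9.48%. By reads LFPRLR SMO 4 and 5 lie highest.

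The arginine difference was set against those of the other segments. Between the medians of the groups, by translations, it was 1.09 percentage points for *Ighj3*, 0.480 for *Ighj2* (exact p = 0.310), 0.452 for *Ighj4* (exact p = 0.0931) and 0.437 for *Ighj1* (exact p = 0.0260, adjusted p over 80 tests = 0.208). The test of the difference itself, the *Ighj3* share minus that of the other segment in each library, passed against *Ighj2* (exact p = 0.00433, adjusted over 3 segments = 0.0130) and not against *Ighj4* (exact p = 0.0649, adjusted p = 0.0974) or *Ighj1* (exact p = 0.485). Without LFPRLR SMO 6 the value against *Ighj2* was 0.373 percentage points between medians in place of 0.483 (exact p = 0.00866, adjusted p = 0.0260). By reads the test against *Ighj2* had an adjusted p of 0.0455 (exact test) with all libraries and 0.0909 without LFPRLR SMO 6. A larger arginine difference on *Ighj3* than on every other segment was therefore not shown.

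Within libraries, *Ighj3* was compared with the other segments on 6 measures, which made 18 comparisons by an exact sign-flip test over 12 libraries, and 12 of them passed after adjustment. The smallest p this test allows is 0.000488, and the libraries that share sequences are not fully independent. Without its kept J residues the *Ighj3* CDR3 was longer, at a median of 7.82 residues, than that of *Ighj1* (7.44), *Ighj2* (7.66) and *Ighj4* (7.57). This held in 12 of 12 libraries for each segment (adjusted p = 0.00146, exact test), although the median difference was no more than 0.335 residues. Other J ends ahead of the *Ighj3* motif, in a median of 5.65% of its translations, lost at most their closing Tyr in this count. Their remaining residues added to the *Ighj3* length, and their part in the difference was not tested. With the kept residues, the *Ighj3* CDR3 at 10.7 residues lay between *Ighj2* (10.2) and *Ighj4* (12) or *Ighj1* (12.1).

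The segments differ in the charge that their own ends carry. WFAY holds no charged residue, while the ends of *Ighj1*, *Ighj2* and *Ighj4* each hold an aspartate, and with their ends these segments had median net charges of -0.490, -0.351 and -0.469, against 0.261 for *Ighj3*. With the kept residues removed the order was the opposite. *Ighj3* then had the lowest charge, 0.261 against 0.456, 0.444 and 0.496, and was lower in 11, 10 and 10 of 12 libraries (adjusted p = 0.00400, 0.00879 and 0.00352, exact test). Other J ends ahead of the *Ighj3* motif, in a median of 5.65% of its translations, kept their aspartate in this count. Their part in the lower charge, and in the arginine and tyrosine shares outside the J end, was not tested. Arginine outside the J end was 12.9% of residues in *Ighj3*, below *Ighj4* (15.1%, lower in 12 of 12 libraries, adjusted p = 0.00146, exact test) and *Ighj1* (14.8%, lower in 11, adjusted p = 0.00293). Against *Ighj2* (13.8%) it was lower in 10 of 12 and did not pass with all libraries (adjusted p = 0.229, exact test), while without LFPRLR SMO 6 it did (adjusted p = 0.00352).

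Other features ahead of the segment also set *Ighj3* apart. The V end read Tyr-Phe-Cys, Tyr-Tyr-Cys being another form, in a median of 15.7% of *Ighj3* translations, against 18.1% of *Ighj1*, 19.3% of *Ighj2* and 19.1% of *Ighj4*. The share was lower in 12, 11 and 12 of 12 libraries (adjusted p = 0.00146, 0.00251 and 0.00146, exact test). Tyrosine outside the J end passed only against *Ighj2* (13.8% and 14.5%, adjusted p = 0.00293, exact test), and reads per translation passed against none (adjusted p = 0.148 to 0.496, exact test). The residues TARAT, a reading frame of the D segment *Ighd3-2*, stood in a median of 0.913% of *Ighj3* translations against 0.0380%, 0.300% and 0.410% of *Ighj1*, *Ighj2* and *Ighj4*, and the *Ighj3* share was higher in 12, 12 and 11 of 12 libraries. This measure was chosen after its values were seen (unadjusted exact p = 0.000488, 0.000488 and 0.000977). Between the groups the TARAT share did not differ by the test, at 0.639% to 1.31% and 0.478% to 2.41% (exact p = 0.699).

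A few CDR3s held a large part of the *Ighj3* reads. Apart from LFPRLR SMO 6, each reached 5% of them only in 1 library or in 1 pair of libraries that shared sequences. In control SMO 5 the 9-residue CDR3 held 25.3% and the 11-residue CDR3 25% of *Ighj3* reads, and in control SMO 7 they held 20.6% and 15%. The same CDR3s held 2.86% and 1.90% in control SMO 4 and at most 0.230% elsewhere, apart from LFPRLR SMO 6. In LFPRLR SMO 5 the 14-residue CDR3 held 27.2% and the 12-residue CDR3 13.4%, and in LFPRLR SMO 4 they held 14.2% and 7.15%. The next highest share of these was 1.12% and 0.583% in LFPRLR SMO 7, again apart from LFPRLR SMO 6. The 17-residue CDR3 held 5.34% in LFPRLR SMO 8. In the other 6 larger libraries the commonest *Ighj3* CDR3 held 2.86% to 4.53%. The 12-residue CDR3 was not the commonest of its library and is named because its share was seen.

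LFPRLR SMO 6 held all 5 of these CDR3s, with 3 to 8 reads each and 1.94% to 5.16% of its 155 *Ighj3* reads. They include both CDR3s that were abundant in control SMO 5 and 7 and those of LFPRLR SMO 4, 5 and 8. The Wilson interval of its commonest, 8 reads of the 11-residue CDR3, is 2.64% to 9.85%.

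The 10 commonest *Ighj3* CDR3s held 10.2% to 59.6% of reads in control SMO mice (median 12.7%) and 17.3% to 50.2% in LFPRLR SMO mice (median 22.5%), which overlapped widely (exact p = 0.310, adjusted p over 54 measures = 0.506). Reads per translation were 2.43 to 5.57 and 1.22 to 5.55 (exact p = 0.699), the lowest being LFPRLR SMO 6, and 59.0% to 69.7% and 62.4% to 85.8% of *Ighj3* translations were read once (exact p = 0.485).

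**Figure D5:**
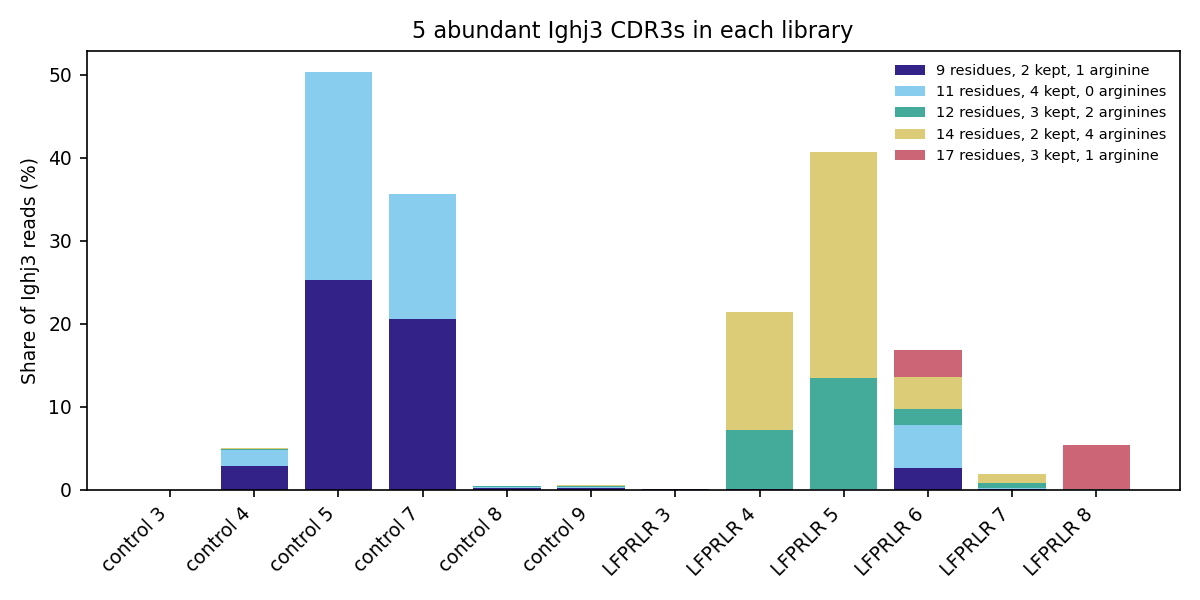
Share of *Ighj3* reads, in percent, held by 5 CDR3s in each of the 12 libraries, stacked and named by length, residues kept and arginines. The 9-residue and 11-residue CDR3s stand in control SMO 5 and 7, the 12-residue and 14-residue CDR3s in LFPRLR SMO 4 and 5, and all 5 occur in LFPRLR SMO 6, at 1.94% to 5.16% of its 155 reads.

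Most *Ighj3* CDR3s were seen in 1 library. Of 69816 different CDR3s, 57650 (82.6%) occurred in 1 library and 5 in all 12, and with each pair of libraries taken as 1, so that 9 units remained, 86.2% occurred in 1 unit. In both groups there were 4587, which is 10.8% of the control SMO list and 14.3% of the LFPRLR SMO list. The widely shared CDR3s were short. Those of 1 unit had a mean length of 11.4 ± 2.50 residues (SD, n = 60207 CDR3s), and those of 7 to 9 units 7.76 ± 2.28 (SD, n = 125 CDR3s). All 4 residues were kept in 32.2% of the former and 22.4% of the latter, and at least 3 were kept in 68.1% and 74.4%. Residue 2 was arginine in 72.3% and 82.4%. A mean of 1.01 nucleotide versions encoded a CDR3 of 1 unit, and 8.18 one of 7 to 9 units, base changes from sequencing included. The 7-residue CDR3 with 3 kept residues printed above had 32 versions, was found in all 12 libraries and held 0.248% to 2.88% of their *Ighj3* reads. These counts describe the lists and were not tested, since a CDR3 with more reads can be found in more libraries and in more versions.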

How the data were processed

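IGH amplicons (J558 VH to Cμ, paired reads on a MiSeq) of splenic B cells from 12 *MRL-lpr* mice were analysed. For each library the authors deposited read counts per unique nucleotide sequence and per unique translation, as whole numbers without normalization. How reads were merged, trimmed and filtered is not given in the sources used here. One table also holds other values deposited by the authors, lengths that were not used. Libraries of control SMO mice held 140475 to 227202 reads, those of LFPRLR SMO mice 627 to 171560.

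Assignment used Python 3.11.15, the tests SciPy 1.17.1 with NumPy 2.4.6, and plots Matplotlib 3.10.9. J motifs were WGAGTTV or WGTGTTV (*Ighj1*), WGQGTTL (*Ighj2*), WGQGTLV (*Ighj3*) and WGQGTSV (*Ighj4*). Kept residues were counted back from the motif against YWYFDV, YFDY, WFAY and YYAMDY. Assignment and tests were tested on simulated data. Groups came from the treatment label and replicate numbers from the sample titles, and mice are taken as separate animals as the study describes. Two-sided exact Mann–Whitney *U* tests (924 arrangements) were run with Hodges–Lehmann shifts at the 95.9% level, exact sign-flip tests within libraries (4096 sign patterns), and Benjamini–Hochberg adjustment over the family named beside each p at a threshold of 0.05. Wilson intervals are at 95%. The 54 further measures form 1 family.

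Named amino acids were those of WFAY and the 3 others with the smallest p by translations. Printed CDR3s were the most-read of each kept class found in both groups and the commonest of a library with at least 5% of its *Ighj3* reads, and the one with the most nucleotide versions was chosen after its values were seen. The members, lists and measures were chosen with earlier results of these data known. Alternatives were a minimum of 2 reads, equal depth (20 draws), leaving out each library, same-numbered pairs, library sets (400 arrangements), averaged pairs, 1 mismatch in the motif, no window on the Cys, each unique CDR3 once and a difference in means. Leaving out the 10 commonest CDR3s, CDR3s with TARAT, ends of other J segments, and CDR3s commoner in the other group, adjusting again without each library, and setting charge and the complete end against other J segments were chosen after seeing the data. V and D gene calls were not used here.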

Additional observations from a re-analysis of the deposited data

Results flagged for a closer look

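A sample far from the others of its group was looked for in 86 sets of 6 libraries, and 6 stood out, where chance gives about 1 in 20. By translations, control SMO 5 had 8.94% arginine in its *Ighj3* CDR3s (next 9.30%) and 19.9% tyrosine (next 19.3%). LFPRLR SMO 6, with 127 *Ighj3* translations, had 8.64% phenylalanine (next 7.63%). By reads, control SMO 8 had 3.11% with 3 or more arginines (next 2.28%), which is below the lowest LFPRLR SMO library at 3.41%. In LFPRLR SMO 7 the V end read Tyr-Phe-Cys in 28.8% of *Ighj3* reads (next 16.3%). In LFPRLR SMO 5 the 10 commonest CDR3s held 50.2% of *Ighj3* reads (next 27.0%), and 27.2% were the 14-residue CDR3 with 4 arginines.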

How the results depend on the processing

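Over 18 results, 388 of 457 recomputed values kept their direction and their side of the threshold. Differences are LFPRLR SMO minus control SMO medians, in percentage points for shares. Without LFPRLR SMO 6, where 155 reads limit every value, no called difference changed direction. Of the *Ighj3* amino acids, 1 was called over 80 tests as reported, and also with at least 2 reads, 1 mismatch, no window, a difference in means or without TARAT, other J ends or CDR3s commoner in the other group. It was 0 on leaving out any 1 library, with each unique CDR3 once, without the 10 commonest CDR3s, by library sets, with pairs averaged and at equal depth. The arginine difference by translations stood at 1.02 to 1.15 and by reads at 1.73 to 2.08 on leaving out 1 library. It was 0.402 with each unique CDR3 once, and 1.27 and 1.02 within the low-variant and high-variant sets (1.58 and 2.12 by reads).

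The same-numbered pairs 3, 4, 5, 7 and 8 are different animals whose deviations correlated at -0.302 to 0.0379. These values cannot tell whether same-numbered mice were handled together, and the main tests did not pair them. With the replicate block the arginine difference was 1.01 by translations and 2.05 by reads, and the count of amino acids called was 0, since 5 pairs cannot give a p under 0.0625.

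The *Ighj3* share of translations rose to 1.86 with at least 2 reads (exact p = 0.0152), was -0.238 with labels permuted within sets and -0.991 within the low-variant set, and ran from 0.573 to 1.56 on leaving out 1 library. The mean length was 0.0339 residues with at least 2 reads in place of -0.153. By reads it was -0.138 without the 10 commonest CDR3s in place of 0.344, and 0.334 to 0.353 on leaving out 1 library (exact p = 0.0303 without LFPRLR SMO 3). Mean kept residues by reads passed before adjustment with at least 2 reads (-0.127), by means (-0.134) and within sets (-0.0872). They also did without other J ends (-0.100, adjusted p over 54 measures = 0.0682, exact test). The same held at equal depth without LFPRLR SMO 6 (-0.142) and on leaving out that library (range -0.143 to -0.0976). Mean kept bases passed only before adjustment by reads (-0.573, exact p = 0.0411, adjusted p over 54 measures = 0.123). By unique sequences they passed unadjusted without LFPRLR SMO 6 (range -0.440 to -0.335). The share of reads with 4 kept residues lost its unadjusted call without control SMO 3 or 5 or LFPRLR SMO 3, 4, 5, 7 or 8 (-3.70 to -2.80, exact p = 0.0519). Without the 10 commonest CDR3s the 10 commonest of the rest differed by 2.67 (exact p = 0.0152), while the 10 commonest differed by 7.17 to 12.5 on leaving out 1 library. The causes were not tested.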
